A study of Zea mays with 14 samples.

Results

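Of the 57514 DNA methylation peaks listed for maize shoots, 1494 lay on a peak of H3K4me3 or H3K9ac of the same organ, and these 1494 are described here. They were chosen by overlap: each shares 1 bp or more with an H3K4me3 or H3K9ac peak of shoot on the same sequenced clone of the maize genome. Plants were of the inbred line B73 and were harvested as shoots and roots at 14 days. The study covered 7 assays with a single library for each organ, 14 in all, so no difference between organs or marks has a replicate check. DNA and chromatin came from tissue of 10 seedlings pooled, and chromatin of parallel immunoprecipitations was joined before sequencing. Methylated DNA was enriched by cutting genomic DNA with McrBC, an enzyme that cleaves near methylcytosine, and purifying the fragments of 500 nucleotides and below. No genotype or treatment distinguished the groups, which differ only in organ and assay.

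H3K4me3 and H3K9ac are marks of active chromatin that usually sit over the start of transcribed genes. Cytosine methylation in maize is dense over transposons and other repeats and usually scarce at active gene starts, so the 2 kinds of chromatin are generally described as excluding each other. H3K36me3 usually lies along the body of transcribed genes. H3K27me3 is set by Polycomb proteins, which keep genes repressed. The members are the places where peaks of these opposing kinds were listed together. Each list was made from its own library of tissue holding many cell types, and whether methylation and histone mark share a cell or a chromosome copy was not measured.

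Overlapping peaks of H3K4me3 and H3K9ac in shoot were joined into 56212 active regions. The members touched 1275 of these regions and lay on 1119 of the 14817 clones with a methylation peak. A single member lay on 928 clones, while 25 clones held 5 or more and together 181 members (12.1%). Within active regions, 1121 held 1 member and 154 held more, up to 8. Of the members, 203 also overlapped another methylation peak of the same list, so neighbouring members are not independent, and the intervals given below cover counting error only and are too narrow for it. Peak strength and read depth behind the peaks are unknown, because the lists give only positions.

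Methylation peaks lay on active regions less often than their position within the clone alone would give. The members were 2.60% of the shoot methylation peaks (95% exact binomial interval 2.47 to 2.73%), against 3.37% when every methylation peak was averaged over all start positions within its own clone. The ratio of observed to placed was 0.771 (0.732 to 0.811). It was 0.498 (0.460 to 0.537) for H3K4me3, with 651 members, and 0.787 (0.746 to 0.831) for H3K9ac, with 1334 members. In root, methylation peaks lay on H3K4me3 or H3K9ac of root at 0.668 times the placed value (0.607 to 0.733), with 444 peaks. Since the overlap is what chose the members, these ratios are descriptions of the lists and carry no test.

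The pooled ratio joined classes of very different behaviour. Bounds of 120, 300 and 400 bp were set after the data were seen. Peaks of 121 to 300 bp, which were 86.5% of all shoot methylation peaks, gave 953 members at a ratio of 0.579 (0.543 to 0.617). Peaks over 400 bp were 2.05% of all shoot methylation peaks but 19.9% of the members. Of these 1178 long peaks 298 were members, or 25.3% (22.8 to 27.9%), against 6.06% by placement, which is a ratio of 4.18 (3.72 to 4.68). Peaks up to 120 bp gave 167 members at a ratio of 1.19 (1.01 to 1.38), and those of 301 to 400 bp gave 76 at 0.936 (0.737 to 1.17). Among the short peaks the ratio was 1.61 (1.35 to 1.91) up to 100 bp and 0.607 (0.425 to 0.841) from 101 to 120 bp.

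**Figure D1:**
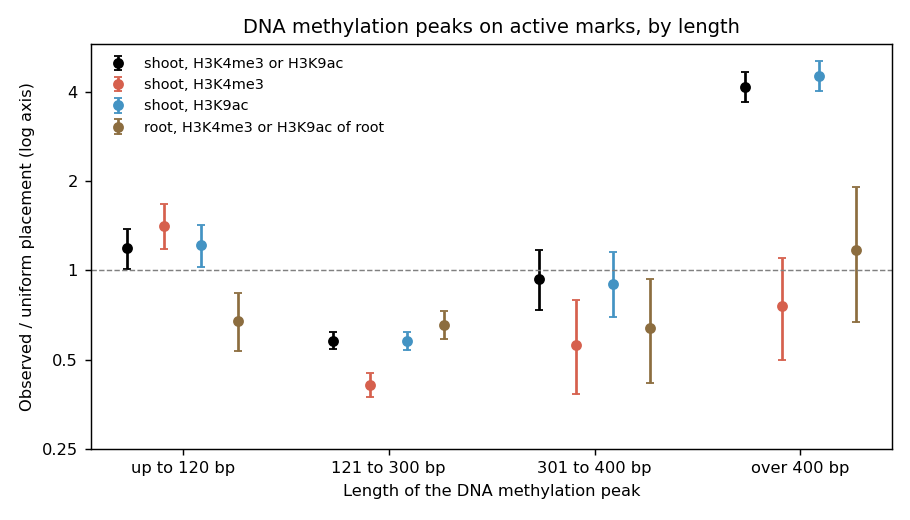
Ratio of observed to placed overlap (vertical log axis) for DNA methylation peaks in 4 length classes (horizontal axis), with points for shoot peaks on H3K4me3 or H3K9ac, on H3K4me3, on H3K9ac, and for root peaks on the marks of root; bars are 95% counting intervals and the dashed line is uniform placement. Shoot peaks of 121 to 300 bp lie below the line for every mark, and shoot peaks over 400 bp lie above it for H3K9ac (4.55) but not for H3K4me3 (0.756).

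The excess among long peaks belonged to H3K9ac in shoot. For H3K9ac the ratio over 400 bp was 4.55 (4.04 to 5.10), with 289 members, whereas for H3K4me3 it was 0.756 (0.498 to 1.10), with 27. Of the 298 long members, 90.9% (87.1 to 93.9%) touched H3K9ac and no H3K4me3 peak, against 61.0% when they were placed on the active regions of their clones. The same held for 51.7% (48.5 to 54.9%) of the members of 121 to 300 bp against 39.2% by placement, and for 20.4% (14.5 to 27.3%) of those up to 120 bp against 37.3%. The shortest members were mostly on both marks, 115 of 167 or 68.9% (61.2 to 75.8%), against 49.8% by placement. Counted by whole regions, which is another measure, 51.8% of active regions with a member and 68.7% of those without carried both marks. In the root lists the class over 400 bp held 579 methylation peaks, of which 16 lay on an active mark of root, a ratio of 1.17 (0.672 to 1.91). This difference between the organs was not tested.

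As a whole the members were longer than other methylation peaks, with a wide spread. Their median length was 206.5 bp (201 to 213 bp by order statistics), against 187 bp (187 to 188 bp) for the 56020 other shoot methylation peaks. The middle 50% of the members ran over 165 to 300.75 bp, and the full range was 69 to 7003 bp. A longer peak touches an active region more easily, but this gave only a median of 190 bp when every peak was weighted by its placed chance of a touch. The 3 longest members were AC212324.2:130253-137255 (7003 bp), AC199218.2:89227-95229 (6003 bp) and AC211624.2:148133-152990 (4858 bp), given as clone, first and last base. All 3 touched H3K9ac and no H3K4me3, with 2661, 1459 and 3202 bp within an H3K9ac peak, so that each ran far out of the acetylated stretch. None of the 3 overlapped H3K27me3 of shoot, H3K36me3 of shoot or DNA methylation of root, and the longest overlapped H3K36me3 of root over 900 bp.

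At the limit that defines a member the lists show no break. The smallest overlaps were 2 bp, at AC194365.3:50557-50693 and AC203974.2:90494-90806. The nearest peaks outside, AC191262.2:114834-115052 and AC205239.2:14621-14877, ended directly beside an active region with a gap of 0 bp. In all, 12 members overlapped by under 10 bp and 14 other methylation peaks lay within 10 bp of an active region. The median overlap of a member was 188 bp.

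Most members lay wholly within an active region. This held for 1065 of 1494 members, or 71.3% (68.9 to 73.6%), while 425 crossed 1 boundary and 4 covered a region from end to end. When each member was placed at all positions that touch an active region of its clone, 61.5% of contacts were wholly inside. Region width was not held fixed in this placement. The gap was widest for the long members, of which 66.1% (60.4 to 71.5%) were wholly inside against 26.6% by placement. Members up to 120 bp were inside in 89.2% of cases (83.5 to 93.5%) against 82.4%. Those of 121 to 300 bp were inside in 70.4% of cases (67.4 to 73.3%) against 69.2%.

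Members of 121 to 300 bp lay nearer to the boundary than placement gave, and long members did not. Of those of 121 to 300 bp, 53.0% (49.8 to 56.2%) crossed a boundary or came within 100 bp of one, against 45.7% by placement. Members up to 120 bp did so in 44.9% of cases (37.2 to 52.8%), with the placed share below that interval. For members over 400 bp the share was 55.4% (49.5 to 61.1%) against 79.1% by placement, so long members lay at the boundary less often. These placed shares ran over all active regions of the clone and did not hold region width fixed. The median region width was 964 bp against 1265 bp by placement at 121 to 300 bp, and 1905 bp against 1487 bp over 400 bp. How much of the gaps at the boundary goes with region width was not tested. Among all 1065 members wholly inside, 6.20% (4.82 to 7.82%) had their centre in the outermost of 5 equal steps from the middle of the region to its boundary, against 4.02% by placement within the same region. The share in the innermost step was 30.1% (27.4 to 33.0%) against 31.5%.

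Counted over all shoot methylation peaks by the distance of their centre from the nearest boundary, the common length class showed a trough that began outside the active region. Peaks of 121 to 300 bp were at 0.214 times the placed number (0.164 to 0.275, 61 peaks) more than 600 bp inside and at 0.308 times (0.247 to 0.379) 400 to 600 bp inside. They were at 0.732 times (0.651 to 0.820) 200 to 400 bp inside and at 0.846 times (0.764 to 0.935, 385 peaks) within 200 bp inside the boundary, with intervals that overlap. Just outside they were at 0.555 times (0.488 to 0.629) up to 200 bp and at 0.687 times (0.612 to 0.770) from 200 to 400 bp, and from 800 to 1000 bp outside they were at 1.01 times (0.915 to 1.11). The value just inside the boundary was thus above the one just outside it. Peaks over 400 bp had the opposite course, with 11.9 times (10.0 to 14.1, 137 peaks) more than 600 bp inside, 2.19 times (1.43 to 3.20) within 200 bp inside, and 1.31 times (0.732 to 2.16) up to 200 bp outside. Peaks up to 120 bp were at 2.69 times (2.21 to 3.23, 112 peaks) within 200 bp inside and at 0.320 times (0.170 to 0.547) up to 200 bp outside. A centre can lie deep inside only in a wide region, so each distance class holds different regions.

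**Figure D2:**
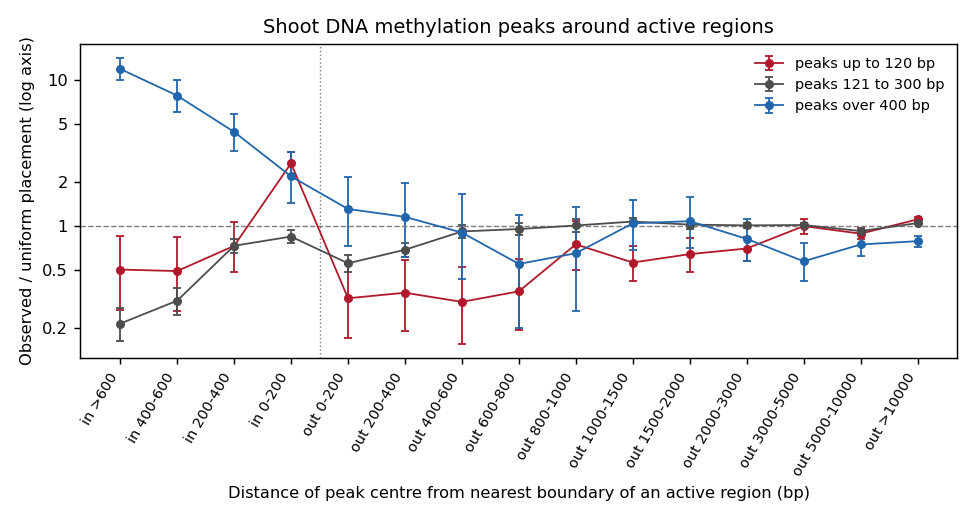
Ratio of observed to placed numbers of shoot DNA methylation peaks (vertical log axis) by the distance in bp of the peak's centre from the nearest boundary of an active region (horizontal axis, inside to the left of the dotted line and outside to the right), for peaks up to 120 bp, of 121 to 300 bp and over 400 bp; bars are 95% counting intervals. Peaks of 121 to 300 bp lie lowest deep inside (0.214) and reach 1.01 at 800 to 1000 bp outside, whereas peaks over 400 bp reach 11.9 deep inside.

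Against placement, members were most frequent in the narrowest regions and least frequent in those of middle width. Regions up to 500 bp wide had 242 contacts with members at 3.99 times the placed value (3.50 to 4.53), and regions of 501 to 1000 bp had 441 at 1.15 times (1.05 to 1.26). The ratio was 0.511 (0.459 to 0.567) at 1001 to 1500 bp and 0.486 (0.422 to 0.556) at 1501 to 2000 bp, and 0.945 (0.741 to 1.19) over 3000 bp. The median width of the 1275 regions with a member was 1032 bp, against 1157 bp for the 54937 regions without one. Width followed the length of the member: the median width of the region was 587 bp (498 to 742 bp) at members up to 120 bp, against 1234 bp by placement. It was 964 bp (898 to 1035 bp) against 1265 bp at 121 to 300 bp, and 1905 bp (1776 to 1973 bp) against 1487 bp over 400 bp.

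Regions with H3K9ac and no H3K4me3 carried members more often than regions with both marks. A member lay on 486 of the 8976 regions of H3K9ac alone, or 5.41% (4.96 to 5.90%), on 128 of the 8808 regions of H3K4me3 alone, or 1.45% (1.21 to 1.73%), and on 661 of the 38428 regions with both, or 1.72% (1.59 to 1.86%). Against placement these regions had 2.24 (2.07 to 2.42), 0.768 (0.651 to 0.901) and 0.496 (0.461 to 0.534) times the contacts. The type of region and the membership rest on the same lists, so this too is a description.

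The region with most members, and the first by clone name of the 3 regions with 7 members, were each lined with several methylation peaks. The region AC214801.1:177458-180394, 2937 bp wide, held 8 members of 109 to 440 bp that covered 56.4% of it. H3K9ac covered all of its 2937 bp, H3K27me3 of shoot 2771 bp and H3K4me3 674 bp, and no H3K36me3 peak of shoot lay on it. In root this stretch had only H3K36me3, over 335 bp. The region AC185461.3:178056-179861, 1806 bp wide, held 7 members of 121 to 383 bp over 83.7% of its width. H3K4me3 covered all of it without H3K9ac, and H3K27me3 covered 1620 bp in shoot and 1740 bp in root. Neither region had a methylation peak in root.

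**Figure D3:**
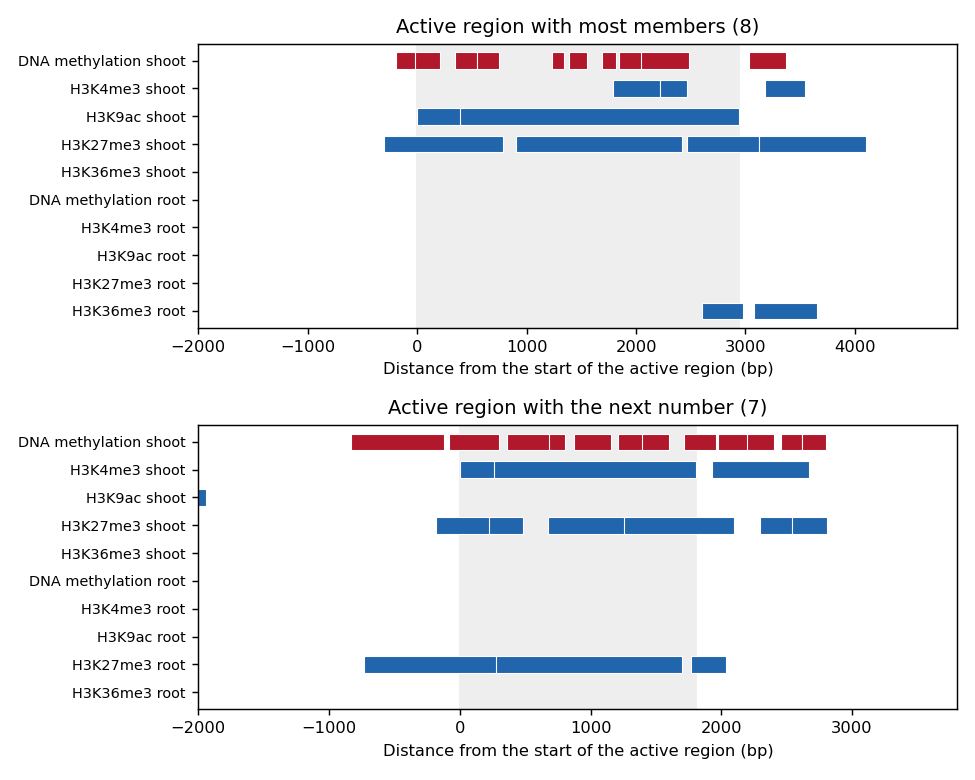
Peaks of each of the 10 lists along the active region of shoot with most members (8, above) and 1 of the 3 with 7 (below), as bars over the distance in bp from the start of the region, with DNA methylation in red, histone marks in blue and the region itself shaded. In both regions the methylation peaks of shoot form a row, H3K27me3 of shoot lies along it, and no methylation peak of root is present.

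H3K27me3 and members coincided more often than the active regions alone would give. Of the members 322 overlapped an H3K27me3 peak of shoot, or 21.6% (19.5 to 23.7%), against 9.96% when they were placed on the active regions of their clone. These 322 include the 137 members with all 4 histone marks of shoot, whose limits are given below. Of all shoot methylation peaks 1.25% overlapped this mark, and of those off active regions 0.707% (0.639 to 0.780%). The share differed between the length classes with no steady course. It was 52.1% (44.2 to 59.9%) of members up to 120 bp against 10.9% by placement, and 18.9% (16.4 to 21.5%) against 9.64% at 121 to 300 bp. It was 36.8% (26.1 to 48.7%) against 16.3% at 301 to 400 bp, and 9.06% (6.06 to 12.9%) against 8.82% over 400 bp. Of the 87 members up to 120 bp with H3K27me3, 55 had all 4 histone marks of shoot. The 3 longest members with H3K27me3 were AC198754.3:58316-59192 (877 bp), AC185461.3:174038-174865 (828 bp) and AC185461.3:11937-12689 (753 bp). The first had H3K9ac, H3K27me3 and H3K36me3 of shoot over all 877 bp and no H3K4me3 of shoot. The second had all 4 histone marks over its full 828 bp in shoot and in root. The third had H3K9ac and H3K36me3 of shoot and all 4 histone marks of root over its full 753 bp, with H3K4me3 of shoot over 319 bp and H3K27me3 of shoot over 105 bp.

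H3K36me3 of shoot, the mark of transcribed gene bodies, was on 424 members, or 28.4% (26.1 to 30.7%), against 24.5% by placement on active regions. Of all shoot methylation peaks 1.53% overlapped H3K36me3. The 424 include the 137 members with all 4 histone marks of shoot, 55 of them up to 120 bp long. Members of 121 to 300 bp were close to placement, with 27.9% (25.1 to 30.9%) against 26.5%, and members up to 120 bp were above it, with 49.7% (41.9 to 57.5%) against 23.7%. Members of 301 to 400 bp were above it too, with 46.1% (34.5 to 57.9%) against 31.9%. Members over 400 bp had 13.4% (9.77 to 17.8%) against 16.7%. Placement did not hold the mark type of the region fixed. Over whole regions, H3K36me3 of shoot was more frequent with a member than without in each type. The shares were 17.3% against 4.73% for H3K9ac alone, 24.2% against 9.57% for H3K4me3 alone and 53.3% against 37.3% for both.

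In root, the place of a member was marked by DNA methylation more often than other methylation peaks were. A root methylation peak lay on 204 members, or 13.7% (12.0 to 15.5%), compared with 6.67% of all shoot methylation peaks and 6.49% (6.28 to 6.69%) of those off active regions. Most of these members were of 121 to 300 bp, with 163 of 953 or 17.1% (14.8 to 19.6%), against 6.75% (6.53 to 6.97%) of other peaks of that length. Up to 120 bp 7 of 167 members had root methylation, or 4.19% (1.70 to 8.45%), against 0.854% (0.599 to 1.18%) of other peaks. At 301 to 400 bp members had 15.8% (8.43 to 26.0%) and other peaks 11.1% (9.78 to 12.5%), with intervals that overlap. Over 400 bp the shares for members and other peaks were 7.38% (4.68 to 11.0%) and 7.84% (6.15 to 9.82%). When members were placed on active regions of their clone only 2.60% met a root methylation peak. The longest members with H3K4me3, H3K9ac and root methylation were AC189766.3:147312-148402 (1091 bp), AC189766.3:149138-149834 (697 bp) and AC203096.3:53045-53738 (694 bp), with 548, 542 and 91 bp under root methylation. The first 2 lay in 1 active region of 3158 bp.

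**Figure D4:**
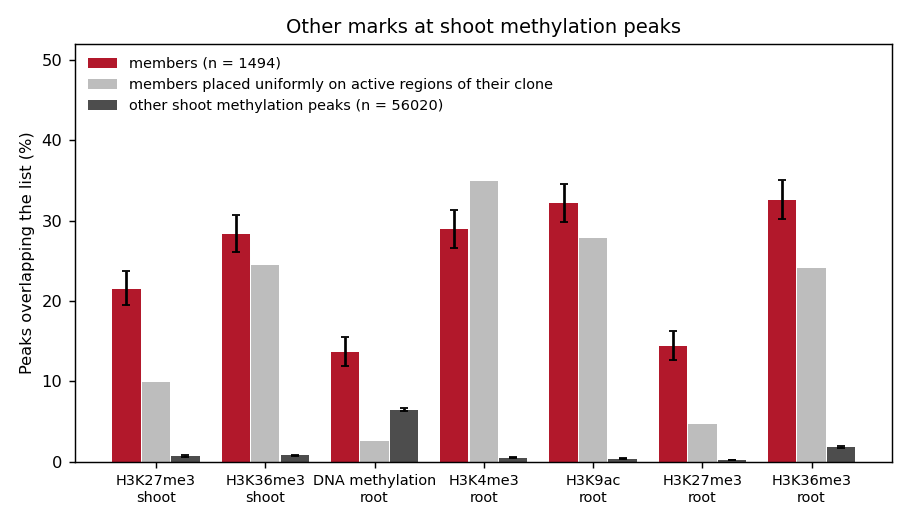
Share in percent (vertical axis, from 0) of members, of members placed uniformly on active regions of their clone, and of other shoot methylation peaks that overlap H3K27me3 and H3K36me3 of shoot and each of the 5 lists of root (horizontal axis); bars on members and other peaks are 95% exact binomial intervals. Members exceed the placed share for H3K27me3 and H3K36me3 of both organs and for DNA methylation and H3K9ac of root, and lie below it for H3K4me3 of root. Placement did not hold the mark type of the region fixed.

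The active marks of root were present at fewer than 50% of the members. H3K4me3 of root lay on 28.9% of members (26.6 to 31.3%), below the 34.9% by placement on active regions of shoot, and H3K9ac of root lay on 32.2% (29.8 to 34.6%), above the 27.8% by placement. This placement did not hold the mark type of the region fixed. Over whole regions of H3K9ac alone, H3K4me3 of root was on 17.5% of those with a member and 11.4% of those without. The shares were 76.1% and 78.1% for regions with both marks, and 35.9% and 39.0% for H3K4me3 alone. Among all shoot methylation peaks 1.24% overlapped H3K4me3 of root and 1.19% H3K9ac of root. Together, 659 members, or 44.1% (41.6 to 46.7%), had an active mark in root, against 45.2% by placement. The share was 76.6% (69.5 to 82.8%) up to 120 bp and 35.5% (32.4 to 38.6%) at 121 to 300 bp, against 44.0% and 44.4% by placement. For members over 400 bp it was 51.7% (45.8 to 57.5%) against 46.3% by placement. In these long members the marks differed in direction from placement: H3K9ac of root was on 47.3% (41.5 to 53.2%) against 32.2%, and H3K4me3 of root on 14.1% (10.4 to 18.6%) against 27.6%. The placed set held another mix of mark types, with 61.0% on H3K9ac and no H3K4me3 of shoot, against 90.9% of the long members. Over whole regions of H3K9ac alone, with members of any length, H3K9ac of root was on 34.4% of those with a member and 16.4% of those without. In such regions H3K4me3 of root was thus higher with a member too. How much of the contrast goes with mark type was not tested.

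H3K27me3 and H3K36me3 of root were above placement as well. H3K27me3 of root lay on 215 members, or 14.4% (12.6 to 16.3%), against 4.72% by placement and 0.558% of all shoot methylation peaks. H3K36me3 of root lay on 487, or 32.6% (30.2 to 35.0%), against 24.1% by placement and 2.66% of all shoot methylation peaks. Both counts include the 102 members that had all 4 histone marks in shoot and in root. Over the root lists, 74 members (4.95%) had both methylation and an active mark in root, against 1.05% by placement. Methylation without an active mark of root was on 130 (8.70%) against 1.55%, and an active mark without methylation on 585 (39.2%) against 44.2%. The remaining 705 (47.2%) had none of these 3 root lists. H3K27me3 and H3K36me3 of root were not used for these groups and can lie on members of each. No peak of any of the 5 root lists lay on 572 members, or 38.3% (35.8 to 40.8%), against 46.4% by placement and 91.3% (91.1 to 91.5%) of other shoot methylation peaks.

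A smaller set of members carried every histone mark at once. By the number of shoot histone marks, 779 members had 1, 330 had 2, 248 had 3 and 137 had all 4. The 137 are 9.17% of the members (7.75 to 10.7%), against 1.44% by placement on active regions. They were short, with a median of 151 bp (121 to 172 bp), against 230 bp (221 to 244 bp) for members with 1 mark, and 55 of them were up to 120 bp long. They also carried the marks in root: 102 of the 137, or 74.5%, had all 4 histone marks of root as well, and 85.4% had 3 or 4, against 1.28% of the members with 1 shoot mark. Root methylation lay on 5.84% (2.55 to 11.2%) of the 137, against 13.4% (11.0 to 15.9%) of members with 1 mark, 15.2% (11.5 to 19.5%) with 2 and 16.9% (12.5 to 22.2%) with 3. Its share thus had no steady course with the number of marks. The 137 were spread over 129 clones.

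**Figure D5:**
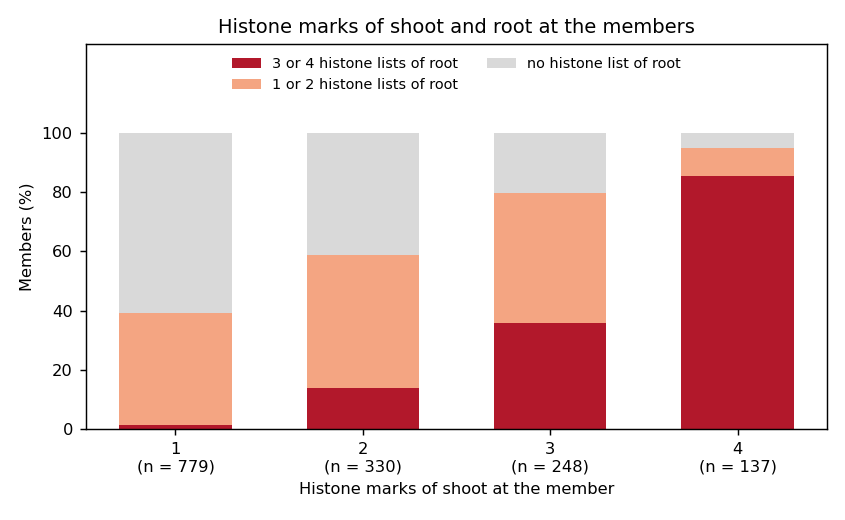
Members split by the number of shoot histone marks at the member (horizontal axis, n in brackets), with the share in percent (vertical axis) that meets 3 or 4, 1 or 2, or none of the 4 histone lists of root. The share with 3 or 4 root lists is 1.28% at 1 shoot mark and 85.4% at 4.

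Seen from the histone lists, places where all 4 marks overlap were mostly methylation sites once root was included. In shoot the 4 lists shared 307 stretches with a median width of 235 bp, and 130 of them, or 42.3% (36.8 to 48.1%), held a shoot methylation peak. Of the 119 stretches shared by the 4 lists of both organs, 99 did, or 83.2% (75.2 to 89.4%). The 137 members on the shoot stretches compare with 4.91 when all shoot methylation peaks were placed over their whole clones. For the 102 on the stretches of both organs the number so placed was 1.75. The 1.44% given above for the 137 came instead from placing members on active regions only, which is a higher baseline. By contrast, the 39138 stretches shared by H3K4me3 and H3K9ac of shoot held methylation in 1.20% of cases (1.09 to 1.31%). Adding H3K36me3 gave 1.70% (1.49 to 1.92%) of 14449 stretches and adding H3K27me3 gave 5.37% (4.61 to 6.22%) of 3109. The histone peaks at the 137 members were narrow for their lists: the median was 231 bp for H3K4me3 against 866 bp over the whole list, 491 bp against 1173 bp for H3K9ac, 175 bp against 440 bp for H3K27me3 and 367 bp against 1204 bp for H3K36me3. The sources used here do not say how reads matching several places in the genome were treated. This limits what the narrow stretches shared by all 4 lists can show, and whether they are repeated or collapsed sequence was not tested.

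Clones with members differed little from others in their gene models. The median share of models typed as transposable elements was 35.7% (33.3 to 37.5%) on the 1119 clones with a member, against 37.5% (36.4 to 37.5%) on the 12673 other clones that have models, a shoot methylation peak and an active region. The number of shoot methylation peaks per clone was higher, with a median of 5 on clones with a member against 3, and a clone with more methylation peaks also has more chances to hold a member. Clones with a member over 400 bp had a median of 7 shoot methylation peaks.

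At the level of gene models, models with methylation and an active mark had mRNA in a slightly larger share than models with the active mark by itself. The gene tables are labelled as holding no transposable elements, and marks of 1 model need not overlap, so these models are not the members. A longer model meets a peak of any list more easily, and the lengths of the models were not compared. In shoot 1214 models had DNA methylation and H3K4me3 or H3K9ac, and 57.9% of them (55.1 to 60.7%) had mRNA above 0. The share was 54.0% (53.6 to 54.5%) of 52153 models with an active mark and no methylation, and 9.27% (8.58 to 9.99%) of 6614 models with methylation and no active mark. Where mRNA was above 0, the median of the mean depth per covered base was 6.33 (5.96 to 6.73) in models with both, 6.62 (6.52 to 6.71) in those with an active mark alone and 5.07 (4.67 to 5.49) in those with methylation alone. H3K36me3 was on 41.3% (38.5 to 44.1%) of the models with both against 34.8% (34.4 to 35.2%) of those with an active mark alone, and H3K27me3 on 9.14% (7.58 to 10.9%) against 9.13% (8.88 to 9.38%). In root 63.9% (60.4 to 67.3%) of 768 models with both had mRNA above 0, against 59.8% (59.3 to 60.3%) of 39233 with an active mark alone. Transcripts below the depth that was listed also stand at 0.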

How the data were processed

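Per the labels' protocols, methylated DNA was enriched with McrBC and chromatin was immunoprecipitated with antibodies to each mark. The authors deposited 10 peak lists of clone names and peak positions, with no height or score, and a gene table per organ with marked lengths and signal (summed base coverage) per gene model. Aligner, peak caller, genome build and annotation: not given in the sources used here. Groups follow the sample titles, and small RNA was not used here.

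Overlap was counted from 1 bp. Active regions are overlapping H3K4me3 and H3K9ac peaks of shoot joined together. Placed values are exact means over all starts of a peak within its clone, taken as position 0 to the last peak end, or over the starts that touch an active region. Clone sequence after the last peak is thus left out, which tends to raise the placed overlap and lower its ratio by an unknown amount. Placement on active regions held neither region width nor mark type fixed. The calculation was tested on made-up peaks against enumeration. Uniform placement ignores gene clustering and sequence that cannot be mapped. Intervals are exact binomial (Clopper-Pearson), exact Poisson, or order-statistic for medians, at 95%. With 1 library per assay and organ no test was run. Python 3.11.15, NumPy 2.4.6 and SciPy 1.17.1 were used. Members, length classes and named regions were chosen with earlier results of these data known. Named peaks are the 3 longest members, the 3 longest with both active marks and root methylation, the 3 longest with H3K27me3, the 2 regions with most members (ties by clone name) and the nearest on each side of the limit. Typed gene models lie on contigs and were joined to peaks by clone only, so no gene is named. No sequence was used. Alternatives were another overlap, a single active mark, long peaks, other extents, edge distances and merging.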

Additional observations from a re-analysis of the deposited data

Results flagged for a closer look

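Methylation peaks up to 120 bp lay on active marks more often than by placement in shoot, at 1.19 times, and less often in root, at 0.673 times (0.534 to 0.836, 81 of 7515 root peaks). The organs thus lay on opposite sides of the placed value, with 1 library per assay each, and this difference was not tested. The shoot ratio was 1.61 (1.35 to 1.91) up to 100 bp and 0.607 (0.425 to 0.841) from 101 to 120 bp. Of the 167 shoot members up to 120 bp, 55 (32.9%) carried all 4 histone marks of shoot, against 2.80% by placement on active regions. The 167 members compare with 141 by placement, so the 55 outnumber the excess. Placement put 4.91 shoot methylation peaks of all lengths on the stretches with all 4 marks. Without the 55, the shoot count up to 120 bp would thus lie below its placed value, on the same side as root. A ratio without them was not computed.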

How the results depend on the processing

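The alternatives gave 67 values, of which 35 fell inside the interval printed for the result and 32 outside it, and no ratio crossed 1. No paired analysis was possible because each assay has 1 library per organ. Leaving out the 25 clones with 5 or more members, and merging overlapping methylation peaks first, were chosen after seeing the data. The member share was 2.32% when at least 50% of the methylation peak had to lie within active regions, 1.13% with H3K4me3 alone, 2.32% with H3K9ac alone, 3.15% for peaks no shorter than the median, 188 bp, 2.30% without the 25 clones and 2.45% with merged peaks. Its ratio to placement was 0.498 with H3K4me3 alone, 0.897 for peaks at or above the median, 0.700 with clone extents from the first to the last peak, 0.687 without the 25 clones and 0.726 with merged peaks. For peaks over 400 bp the ratio was 3.80 without the 25 clones and 3.56 with merged peaks, and up to 120 bp it was 1.18 in both. The median length was 186 bp with H3K4me3 alone and 272 bp for peaks at or above the median. The share wholly inside was 79.7% at 50% overlap, 53.3% with H3K4me3 alone and 66.7% for peaks at or above the median. The share at the boundary was 79.3% with H3K4me3 alone, 49.3% with H3K9ac alone, 39.8% within 50 bp and 74.0% within 200 bp. The median region width was 491 bp with H3K4me3 alone and 1107.5 bp with H3K9ac alone. H3K27me3 was on 35.5% of members with H3K4me3 alone, 16.6% at or above the median length and 19.4% without the 25 clones. H3K36me3 was on 31.0% at 50% overlap, 45.8% with H3K4me3 alone and 25.2% at or above the median length. An active mark of root was on 47.4% at 50% overlap and 58.2% with H3K4me3 alone. Models with methylation and H3K4me3 had mRNA above 0 in 63.0% of cases. A setting with a single mark changes the members themselves; for the other moves the cause was not tested. No member repeated the layout of another, and clones without an active region add nothing to either side of the ratio. Counting repeated layouts once and keeping only clones with an active region therefore could not move a value. Their values are nevertheless counted among the 35.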
